A study of Homo sapiens with 14 samples.

Results

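The genes described here encode the WNT pathway and the planar cell polarity core: WNT ligands, WLS and PORCN, Frizzled and LRP receptors, Dickkopf and SFRP inhibitors, the R-spondin axis, the cytoplasmic transducers, the TCF and LEF factors, and the CELSR, VANGL and PRICKLE families. They were chosen by gene symbol with no cut on measured values, although earlier results of these data were known. They number 74 of the 19726 genes listed in either table of counts. All 74 are in the table of parental cells (19143 genes), and 70 are in the table of the EGFP and OmoMYC lines (17810 genes). WNT7A, PORCN, FZD9 and FZD10 are the 4 listed for parental cells only.

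RNA-seq of ribosomal RNA-depleted libraries was used on CHP-134, an established human neuroblastoma cell line with amplified MYCN. In the first experiment, cells transduced with a lentiviral Tet-On vector (pInducer20) and selected in G418 expressed either EGFP or OmoMYC during 3 days in 1 µg/ml doxycycline, in Tet-approved serum, with 3 libraries of each. OmoMYC, a mutated dimerization domain of MYC, binds the partners of MYC proteins and so competes with them. In the second experiment, parental cells with no transgene and no tagged protein, kept in normal serum, received DMSO or 500 nM dTAG47 for 18 h, with 4 libraries of each. The compound dTAG47 bridges proteins tagged with FKBP12(F36V) to the ubiquitin ligase cereblon, so these cells show its effect without a tagged target. The EGFP and OmoMYC lines were made by separate transductions, so a difference between the lines that was there before induction cannot be told apart from an effect of OmoMYC. The replicates are described as biological, but nothing used here says that they were grown on separate days.

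WNT ligands are lipid-modified in the endoplasmic reticulum by PORCN, carried to the surface by WLS, and bound there by Frizzled receptors with the co-receptors LRP5 and LRP6. In the canonical branch, Dishevelled (DVL) proteins then block the APC, AXIN and GSK3 destruction complex, and beta-catenin (CTNNB1) accumulates and acts through TCF and LEF factors. R-spondins bind LGR receptors and withdraw the ubiquitin ligases ZNRF3 and RNF43, which otherwise clear Frizzled from the membrane. The planar polarity branch uses Frizzled and Dishevelled with CELSR cadherins, VANGL and PRICKLE to orient cells within a tissue, and both branches operate in the migrating neural crest from which neuroblastoma arises.

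The promoters of 5 members are shown first because the values below turn on them. FZD1, RSPO1 and RSPO4 had the 3 largest fitted rises with OmoMYC among the 55 members tested. CELSR2 was the only member called with dTAG47 in the main fit, and the DVL2 promoter holds the most E-boxes of those searched. Each run is the 250 bases before the RefSeq gene start on GRCh38.p14, 5′ to 3′ on the gene's strand, and capitals mark the E-box CACGTG, a palindrome that MYC proteins bind with MAX.
FZD1 (chr7:91264183-91264432, plus strand): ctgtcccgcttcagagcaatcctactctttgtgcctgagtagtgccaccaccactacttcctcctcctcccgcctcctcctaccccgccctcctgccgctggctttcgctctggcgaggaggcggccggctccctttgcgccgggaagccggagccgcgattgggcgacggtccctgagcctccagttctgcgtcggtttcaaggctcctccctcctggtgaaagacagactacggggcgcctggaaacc
RSPO1 (chr1:37634893-37635142, minus strand): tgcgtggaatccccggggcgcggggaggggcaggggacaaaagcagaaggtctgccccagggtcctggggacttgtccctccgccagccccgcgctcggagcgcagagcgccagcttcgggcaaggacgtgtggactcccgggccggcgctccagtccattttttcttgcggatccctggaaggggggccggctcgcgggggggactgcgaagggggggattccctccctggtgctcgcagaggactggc
RSPO4 (chr20:1002312-1002561, minus strand): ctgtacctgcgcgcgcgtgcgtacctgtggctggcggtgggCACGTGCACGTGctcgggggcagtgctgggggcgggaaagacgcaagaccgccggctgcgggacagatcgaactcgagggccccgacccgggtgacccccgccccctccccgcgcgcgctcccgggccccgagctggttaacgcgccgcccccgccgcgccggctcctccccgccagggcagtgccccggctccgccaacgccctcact
CELSR2 (chr1:109249289-109249538, plus strand): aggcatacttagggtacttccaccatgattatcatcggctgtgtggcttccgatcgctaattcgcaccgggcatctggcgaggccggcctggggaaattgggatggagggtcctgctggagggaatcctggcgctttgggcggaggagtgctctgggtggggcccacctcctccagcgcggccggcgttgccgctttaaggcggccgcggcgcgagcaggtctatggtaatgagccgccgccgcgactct
DVL2 (chr17:7234518-7234767, minus strand): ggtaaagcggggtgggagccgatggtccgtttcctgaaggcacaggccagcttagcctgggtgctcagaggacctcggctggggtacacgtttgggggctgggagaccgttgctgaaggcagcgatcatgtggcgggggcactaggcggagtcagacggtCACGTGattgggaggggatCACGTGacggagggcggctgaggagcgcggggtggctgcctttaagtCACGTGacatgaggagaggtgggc
Promoter windows were matched for 55 of the 74 members, some of them with more than 1 gene start, which gave 70 windows; 19 members had no entry. The E-box stood in 4 of these 70 windows (5.71%), each of a different member, against 6.34% of all 35116 promoter windows of the same length. Of these 4 members, RSPO4 holds a back-to-back pair and was called higher with OmoMYC, DVL2 holds 3 and was not called, APC was not called, and PRICKLE3 had too few counts to be tested in that comparison. APC and PRICKLE3 each have another window with no E-box. The FZD1, RSPO1 and CELSR2 windows hold none. CTTTGAT, the core bound by TCF and LEF factors, was searched on both strands and stood in 0 of the 70 windows against 2.26% of all windows. A match of letters is not a measured binding site, and its absence says nothing of binding outside the window.

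Total counts ranged from 28060817 to 32001315 per EGFP library, 29288048 to 38358128 per OmoMYC library, 40861430 to 51199800 per DMSO library and 43019725 to 53451641 per dTAG47 library. Levels are given as CPM, the gene's count relative to the library total after TMM scaling, and each experiment was scaled separately. Counts assigned to MYC, from which OmoMYC is derived, were 0.568 to 0.689 CPM in EGFP and 513 to 527 CPM in OmoMYC cells, in the direction the labels give. All 9 adrenergic neuroblastoma markers were counted, with a summed 3725 to 4372 CPM in EGFP and 3562 to 3717 CPM in OmoMYC libraries, although TH and DBH stood at only 0.238 and 0.405 CPM on average with EGFP. The summed level of 8 mesenchymal markers was 366 to 378 CPM in EGFP and 294 to 316 CPM in OmoMYC cells, that of 4 Schwann markers 5.08 to 7.92 and 5.90 to 7.07 CPM, that of 3 immune markers 0.442 to 0.609 and 0.171 to 0.526 CPM, and that of 2 endothelial markers 0.172 to 0.358 and 0.130 to 0.409 CPM. The defining immune marker PTPRC and endothelial marker PECAM1 averaged 0.406 and 0 CPM with EGFP and 0.0392 and 0.0200 CPM with OmoMYC. PTPRC was called lower (adjusted p = 0.00121, edgeR quasi-likelihood), from 13, 12 and 11 counts with EGFP and 0, 2 and 2 with OmoMYC. It passed the filter on low counts only through the EGFP libraries, so it could hardly be called other than lower. The fall of the mesenchymal sum lay mostly in TWIST1, which was called lower (283 CPM in EGFP cells, 211 CPM in OmoMYC cells). YAP1 of the same list was also called lower (7.91 and 3.67 CPM), whereas COL1A1 (21.2 and 31.5 CPM) and CD44 (3.11 and 10.3 CPM) were called higher. FN1, PRRX1, SNAI2 and COL3A1 were not called, although every OmoMYC library was below every EGFP library for FN1 and PRRX1. The part of these markers in the results below was not tested. In bulk RNA, fewer cells of a type and less RNA per cell cannot be told apart.

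WNT genes were called in both directions between the OmoMYC and EGFP lines, with a large rise in a receptor gene. The Frizzled receptor gene FZD1 rose 4.94-fold, and the inhibitor gene DKK1 and the polarity gene VANGL2 rose 2.12-fold and 1.57-fold. The R-spondin genes RSPO1 and RSPO4 rose from near the floor, but passed the filter on low counts only through the OmoMYC libraries. The R-spondin receptor gene LGR4, the secretion gene WLS, the inhibitor gene SFRP1, 4 ligand genes, 3 other Frizzled genes, and TCF7L2 and LEF1 fell. Of the 70 members, 55 passed the filter on low counts, and 16 were called higher and 12 lower by edgeR's quasi-likelihood test at a Benjamini-Hochberg FDR below 0.05. These are 29.1% and 21.8% of the members tested, against 27.3% higher and 25.7% lower over all 13803 genes tested, so the members were called about as often as genes at large. The groups did not overlap for 29 of 55 members (52.7%), with OmoMYC above for 16 (29.1%) and below for 13 (23.6%), against 62.3%, 32.0% and 30.3% of all genes tested. The median log2 fold change was 0.03 over the members tested and 0.01 over all genes tested, and the medians of its absolute value were 0.30 and 0.31. After correction for GC content, exon length and gene span the members split into 14 higher and 25 lower, against 22.5% higher and 38.9% lower over the 13499 genes with these features. The chi-square per degree of freedom over genes was 21.9 between EGFP replicates 1 and 2, 43.9 between 1 and 3, and 8.21 between 2 and 3. For the same pairs of OmoMYC replicates it was 2.86, 6.29 and 9.03. The part of this spread among the EGFP libraries in the results was not tested. All 55 fold changes are in the plot of OmoMYC against EGFP by role.

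**Figure D1:**
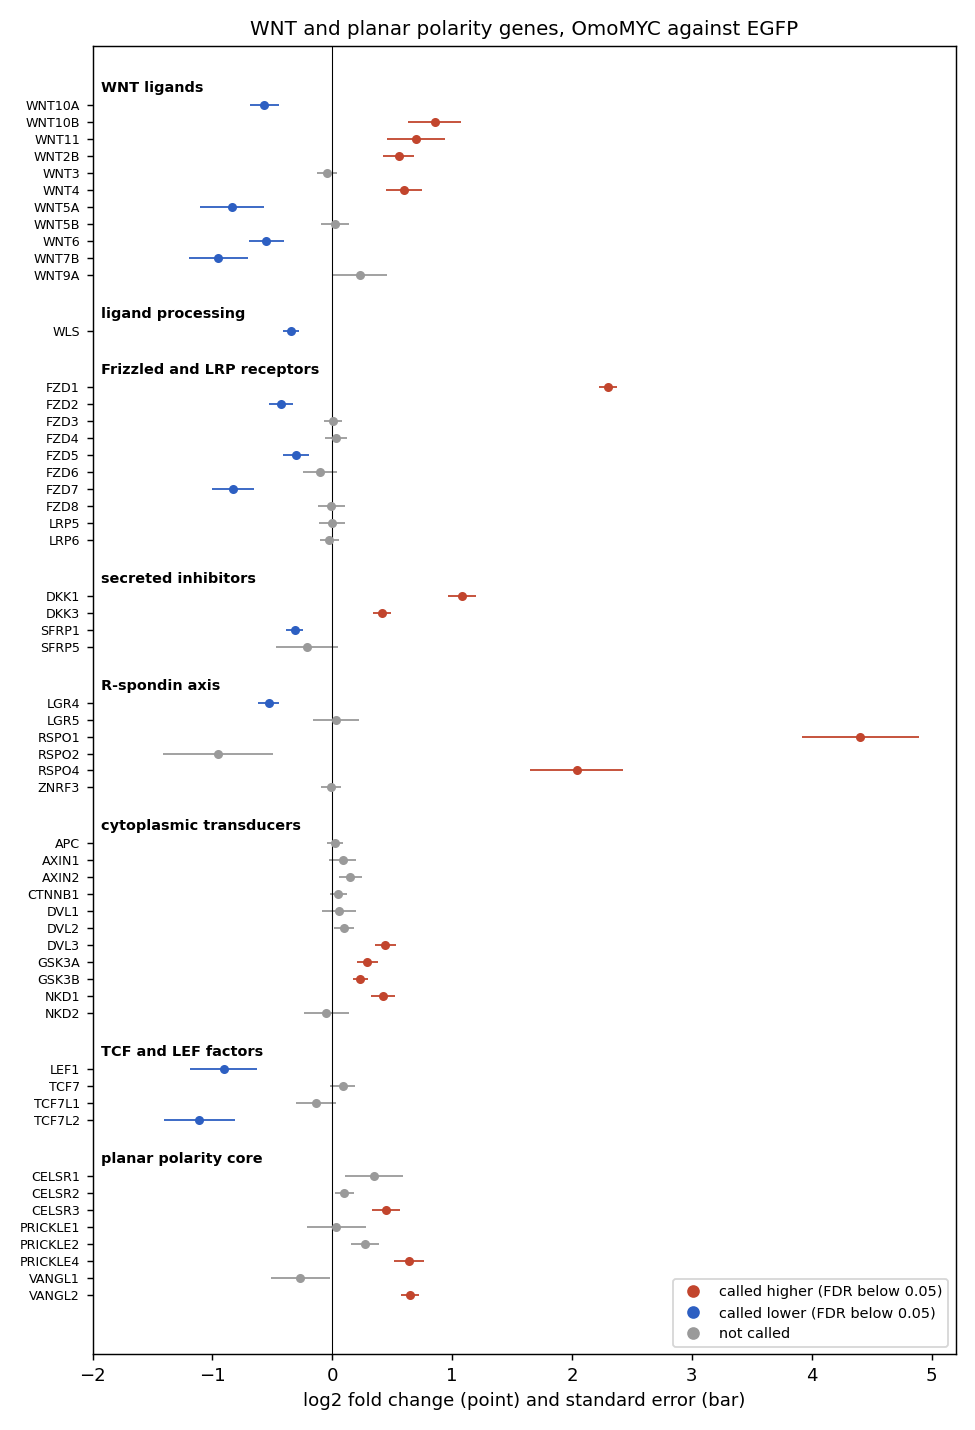
Log2 fold change (x axis, point) and standard error (bar) of the 55 members tested in OmoMYC against EGFP, grouped by role, from 3 libraries a group. Red marks the 16 members called higher, blue the 12 called lower and grey those not called; RSPO1, FZD1 and RSPO4 lie farthest to the right, at 4.41, 2.30 and 2.04.

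Among the 18 WNT ligand genes listed, 11 were tested, of which 4 were called higher and 4 lower, against 27.3% and 25.7% of all genes tested. WNT10B, a canonical ligand, was at 0.757, 1.22 and 1.03 CPM in the EGFP libraries and 1.53, 1.97 and 1.87 CPM in the OmoMYC libraries. WNT11, a ligand of the non-canonical branch, was at 1.45, 0.895 and 1.17 CPM in EGFP and 1.88, 1.53 and 2.401 CPM in OmoMYC cells. WNT4, known from kidney and gonad development, was at 2.15, 1.79 and 1.83 CPM in EGFP and 2.93, 2.83 and 2.99 CPM in OmoMYC cells. All 3 were higher in every OmoMYC library than in any EGFP library. Their log2 fold changes were 0.85 (SE 0.22, adjusted p = 0.00834), 0.70 (SE 0.24, adjusted p = 0.0307) and 0.60 (SE 0.15, adjusted p = 0.00741, edgeR quasi-likelihood), and WNT2B rose by 0.55. The WNT11 call was lost when any of 4 single libraries was left out (adjusted p = 0.133 without EGFP replicate 2, 0.0544 without EGFP replicate 3, 0.0622 without OmoMYC replicate 1 and 0.145 without OmoMYC replicate 3). Of WNT2B exon bases, 21.5% overlap ST7L on the opposite strand, and how strand was treated in counting is not given in the sources used here, so reads of the pair cannot be told apart.

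WNT7B, a ligand used in nervous system and lung development, was at 1.45, 1.58 and 1.38 CPM in EGFP and 0.512, 0.934 and 0.789 CPM in OmoMYC cells. WNT5A, the main non-canonical ligand, was at 1.07, 1.75 and 1.17 CPM in EGFP and 0.580, 0.856 and 0.756 CPM in OmoMYC cells. WNT10A, a canonical ligand of skin and teeth, was at 7.67, 8.09 and 8.44 CPM in EGFP and 5.73, 4.75 and 5.92 CPM in OmoMYC cells. No OmoMYC library reached the lowest EGFP library for any of these 3. They fell by 0.95 (SE 0.24, adjusted p = 0.00773), 0.84 (SE 0.27, adjusted p = 0.0224) and 0.57 (SE 0.12, adjusted p = 0.0028) on the log2 scale (edgeR's quasi-likelihood test), and WNT6 fell by 0.55. The WNT5A call was lost without EGFP replicate 2 (adjusted p = 0.0932) or without OmoMYC replicate 1 (adjusted p = 0.0782, edgeR). WNT3, WNT5B and WNT9A were not called. Per kilobase of exon, WNT6 was the most abundant ligand transcript with EGFP at 6.14 CPM per kb, followed by WNT3 at 4.87 CPM per kb, and this order turned with OmoMYC to 4.19 and 4.74 CPM per kb. The other 7 ligand genes, WNT1, WNT2, WNT3A, WNT8A, WNT8B, WNT9B and WNT16, did not pass the filter and had 0 to 14 counts in any of the 6 libraries. WNT1 was apart between the groups, with 0, 1 and 2 counts in EGFP libraries and 7, 8 and 11 counts in OmoMYC libraries, and against the floor of 3 counts per library was at least 1.93-fold higher. It was called higher by DESeq2 and by edgeR with no filter on low counts.

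WLS, the transmembrane carrier of WNT ligands, was at 87.2, 84.3 and 85.7 CPM in EGFP and 68.4, 66.7 and 67.5 CPM in OmoMYC cells. The groups did not overlap, and WLS fell by 0.34 on the log2 scale (SE 0.07, adjusted p = 0.00147, edgeR quasi-likelihood).

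FZD1 (ENSG00000157240.2, chromosome 7 of hg19 from 90893748 to 90900641, plus strand) encodes a Frizzled receptor. It was at 39.6, 40.004 and 43.6 CPM in the EGFP libraries and 215, 196 and 197 CPM in the OmoMYC libraries. The lowest OmoMYC library was far above the highest EGFP library. The means were 41.1 ± 2.22 and 203 ± 10.6 CPM (SD, n = 3 each), which gives a log2 fold change of 2.30 (SE 0.08, adjusted p = 5.46e-09, edgeR quasi-likelihood). In parental cells, scaled separately, FZD1 was at 27.1 ± 0.892 CPM in DMSO and 27.5 ± 1.82 CPM in dTAG47 cells (SD, n = 4 each).

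The other Frizzled genes moved little or fell. FZD7 was at 4.57, 3.04 and 3.65 CPM in EGFP and 2.08, 2.08 and 2.20 CPM in OmoMYC cells, and fell by 0.83 (SE 0.17, adjusted p = 0.00261). FZD2 was at 41.5, 46.8 and 54.8 CPM in EGFP and 35.03, 34.3 and 37.001 CPM in OmoMYC cells, and fell by 0.43 (SE 0.10, adjusted p = 0.00532). FZD5 was at 7.07, 7.02 and 8.02 CPM in EGFP and 5.63, 6.07 and 6.22 CPM in OmoMYC cells, and fell by 0.30 (SE 0.11, adjusted p = 0.041, edgeR quasi-likelihood). The groups did not overlap for these 3, but FZD5 was not called by DESeq2 (adjusted p = 0.0641) or when any single library other than EGFP replicate 1 was left out (adjusted p-values from 0.0517 to 0.139, edgeR). FZD3, FZD4, FZD6 and FZD8 were not called, with log2 fold changes of 0.0050, 0.03, -0.10 and -0.0066. The co-receptor genes LRP5 (-0.00074, 110 CPM in both groups) and LRP6 (-0.03) were not called either.

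With FZD1 up and FZD2 down, the makeup of the Frizzled family changed. Levels per kilobase of exon, summed over the 8 Frizzled genes, were 33.4 ± 1.92 CPM per kb in EGFP and 53.0 ± 1.18 CPM per kb in OmoMYC cells (SD, n = 3 each), a ratio of 1.59. FZD1 took 17.7% to 18.0% of this sum in the EGFP libraries and 54.2% to 57.4% in the OmoMYC libraries. FZD2, the leading Frizzled transcript with EGFP at 34.4% to 40.7%, took 17.1% to 18.6% with OmoMYC. The DMSO libraries, over 10 Frizzled genes, had an FZD1 share of 14.97% to 15.7%. A share can fall while a gene's own level does not, as for FZD3.

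**Figure D2:**
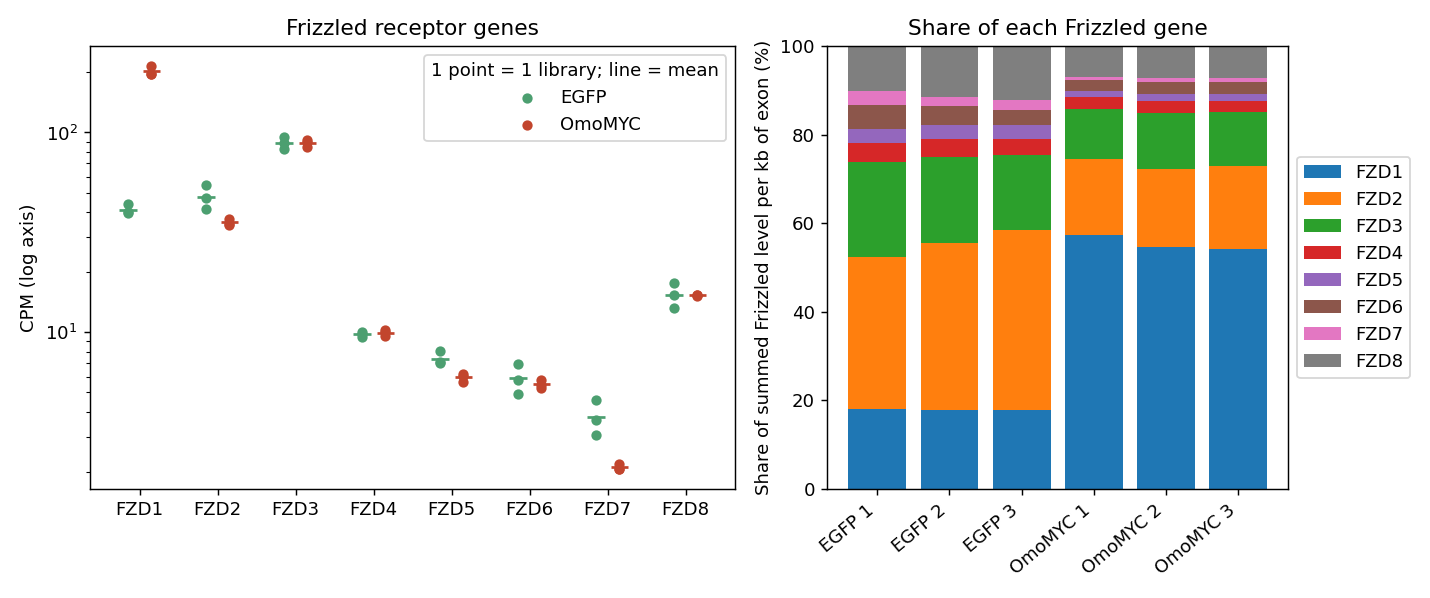
Left, CPM (log axis) of the 8 Frizzled genes in the 3 EGFP and 3 OmoMYC libraries, with a point for each library and a line at each mean. Right, the share of each Frizzled gene in the summed level per kb of exon (%), by library; the FZD1 share is 17.7% to 18.0% with EGFP and 54.2% to 57.4% with OmoMYC.

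The secreted inhibitors also moved in both directions. DKK1, which blocks LRP5 and LRP6, was at 6.22, 5.12 and 5.92 CPM in EGFP and 12.5, 13.0 and 11.1 CPM in OmoMYC cells. DKK3, the divergent member of the Dickkopf family, was at 28.6, 27.2 and 29.8 CPM in EGFP and 39.0, 38.1 and 37.1 CPM in OmoMYC cells. SFRP1, which binds WNT ligands outside the cell, was at 67.3, 67.5 and 67.5 CPM in EGFP and 55.9, 54.5 and 52.4 CPM in OmoMYC cells. For none of the 3 did the groups overlap. The log2 fold changes were 1.08 for DKK1 (SE 0.12, adjusted p = 4.13e-05), 0.41 for DKK3 (SE 0.08, adjusted p = 0.00119) and -0.31 for SFRP1 (SE 0.07, adjusted p = 0.00313, edgeR quasi-likelihood). Of DKK3 exon bases, 47.5% overlap USP47 on the opposite strand, and of DKK1 exon bases 10.2% overlap PRKG1-AS1. SFRP5 was not called, and DKK2, DKK4, SFRP2 and SFRP4 had 0 to 9 counts in any of the 6 libraries and were not tested.

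In the R-spondin axis RSPO1 and RSPO4, which encode secreted agonists, rose while the receptor gene LGR4 fell. RSPO1 had 3, 0 and 1 counts in the EGFP libraries and 28, 42 and 32 counts in the OmoMYC libraries. Against the floor of 3 counts per library it was at least 8.89-fold higher (adjusted p = 5.32e-05, edgeR quasi-likelihood), and the fitted log2 fold change of 4.41 depends on the prior count. RSPO4 had 5, 6 and 4 counts with EGFP and 21, 34 and 15 counts with OmoMYC, a log2 fold change of 2.04 (SE 0.39, adjusted p = 0.00147, edgeR). Both separate the groups fully, and even with OmoMYC their levels stayed at 1.03 and 0.697 CPM. Both passed the filter on low counts only through the OmoMYC libraries. A gene that enters the test in this way can hardly be called other than higher. RSPO2 had a log2 fold change of -0.95 (SE 0.46, adjusted p = 0.102, edgeR), was not called, and did not overlap between groups. RSPO3, LGR6 and RNF43 were not tested, and the ubiquitin ligase gene ZNRF3 (83.6 and 82.9 CPM, log2 fold change -0.01) and the stem cell receptor gene LGR5 (0.03) were not called.

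LGR4 was at 67.1, 56.7 and 56.3 CPM in EGFP and 43.1, 41.2 and 40.3 CPM in OmoMYC cells. The groups did not overlap, and LGR4 fell by 0.53 on the log2 scale (SE 0.09, adjusted p = 0.000598, edgeR quasi-likelihood). It made up most of the LGR family, whose summed level per kb was 9.89 ± 0.959 CPM per kb in EGFP and 7.01 ± 0.325 CPM per kb in OmoMYC cells (SD, n = 3 each).

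Of the 11 cytoplasmic transducers, 4 were called higher and 0 lower, against 27.3% and 25.7% of all genes tested. DVL3, a Dishevelled scaffold and the most abundant of these transcripts per kb, was at 157, 183 and 196 CPM in EGFP and 244, 233 and 251 CPM in OmoMYC cells. NKD1, an antagonist of Dishevelled, was at 17.9, 17.1 and 20.0 CPM in EGFP and 23.0, 23.5 and 27.6 CPM in OmoMYC cells. GSK3A, a destruction complex kinase, was at 53.2, 60.8 and 66.3 CPM in EGFP and 75.4, 73.4 and 71.9 CPM in OmoMYC cells. The groups did not overlap for these 3. The log2 fold changes were 0.44 (SE 0.09, adjusted p = 0.00156), 0.43 (SE 0.10, adjusted p = 0.00506) and 0.29 (SE 0.09, adjusted p = 0.0163, edgeR quasi-likelihood), and GSK3B rose by 0.23 (adjusted p = 0.0102, edgeR). The calls of both kinases were lost on leaving out replicate 2 of EGFP or replicate 2 or 3 of OmoMYC, and that of GSK3A also without OmoMYC replicate 1. In those fits the adjusted p was 0.0621, 0.0742, 0.0629 and 0.0685 for GSK3A, and 0.0794, 0.079 and 0.0702 for GSK3B (edgeR).

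Beta-catenin and most of its destruction complex were not called. CTNNB1 was at 253 ± 17.5 CPM in EGFP and 262 ± 8.20 CPM in OmoMYC cells (SD, n = 3 each), which gives a log2 fold change of 0.05. APC (0.02), AXIN1 (0.09), AXIN2 (0.15), DVL1 (0.06), DVL2 (0.10) and NKD2 (-0.05) were not called. After the gene feature correction DVL1, DVL2 and AXIN1 turned to -0.40, -0.34 and -0.41 and were called lower, AXIN2 turned to -0.08 without a call, and CTNNB1 and APC were called higher at 0.10 and 0.11. AXIN2, a widely used reporter gene of canonical signalling, shares 25.3% of its exon bases with a gene on the same strand.

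Both falls among the 4 TCF and LEF factors were in transcripts of low abundance. TCF7L2 was at 1.45, 0.895 and 1.62 CPM in EGFP and 0.819, 0.519 and 0.526 CPM in OmoMYC cells. LEF1 was at 0.915, 0.895 and 1.31 CPM in EGFP and 0.546, 0.441 and 0.691 CPM in OmoMYC cells. All OmoMYC libraries were below all EGFP libraries for both genes. TCF7L2 fell by 1.11 (SE 0.30, adjusted p = 0.00943) and LEF1 by 0.91 (SE 0.28, adjusted p = 0.019, edgeR quasi-likelihood) on the log2 scale. The LEF1 call was lost on leaving out EGFP replicate 3 (adjusted p = 0.0636), OmoMYC replicate 1 (adjusted p = 0.0513) or OmoMYC replicate 2 (adjusted p = 0.0708, edgeR). TCF7, the most abundant factor of the 4 per kb, was at 35.05 and 37.2 CPM (log2 fold change 0.09), and neither it nor TCF7L1 (-0.14) was called.

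In the planar polarity core 3 of 8 members tested were called higher and 0 lower, against 27.3% and 25.7% of all genes tested. VANGL2 (ENSG00000162738.5, chromosome 1 of hg19 from 160370354 to 160398460, plus strand), a membrane protein of the core complex, was at 87.9, 87.2 and 99.1 CPM in EGFP and 142, 140 and 148 CPM in OmoMYC cells. PRICKLE4, a relative of the core PRICKLE proteins, was at 5.96, 5.69 and 7.27 CPM in EGFP and 9.31, 10.7 and 9.44 CPM in OmoMYC cells. CELSR3, an atypical cadherin of axon guidance, was at 18.3, 19.3 and 24.1 CPM in EGFP and 25.8, 26.8 and 31.5 CPM in OmoMYC cells. For all 3 the groups were apart, most narrowly for CELSR3. The log2 fold changes were 0.65 (SE 0.07, adjusted p = 5.87e-05), 0.64 (SE 0.12, adjusted p = 0.00158) and 0.45 (SE 0.12, adjusted p = 0.0095, edgeR quasi-likelihood). The CELSR3 call was lost without EGFP replicate 2 (adjusted p = 0.0565) or OmoMYC replicate 3 (adjusted p = 0.0707, edgeR), and its fold change turned to -0.05 after the gene feature correction. Of PRICKLE4 exon bases, 56.4% are shared with a second PRICKLE4 entry and 14.2% with TOMM6. VANGL2 was the most abundant core transcript per kb in both groups, and VANGL1 (-0.27), CELSR1 (0.35), CELSR2 (0.10), PRICKLE1 (0.03) and PRICKLE2 (0.27) were not called. After the gene feature correction CELSR2 was called lower (-0.40), and VANGL2 and PRICKLE4 stayed called higher.

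The plot of 6 members in all 14 libraries sets these values beside parental cells.

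**Figure D3:**
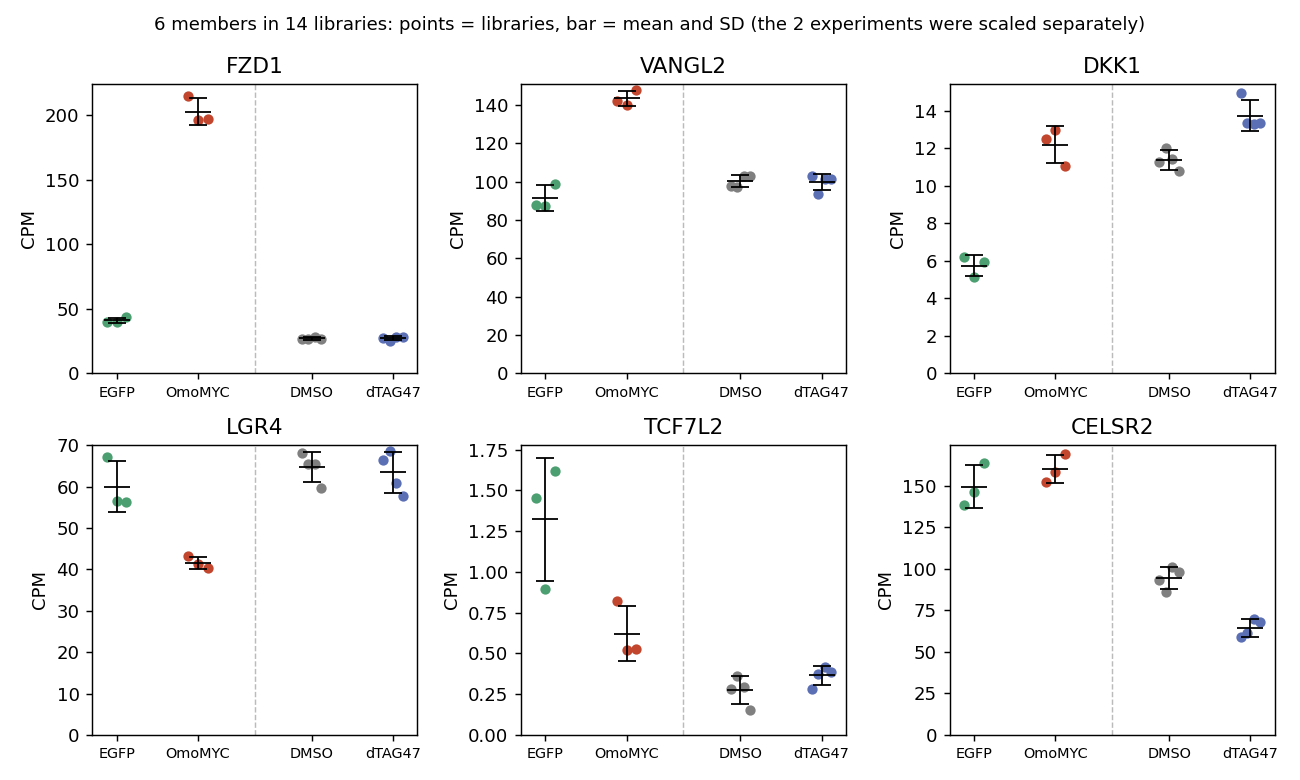
CPM (linear axis from 0) of FZD1, VANGL2, DKK1, LGR4, TCF7L2 and CELSR2 in the 14 libraries, with points for libraries and bars for the mean and SD of each group; the dashed line divides the 2 experiments, which were scaled separately. The EGFP and OmoMYC points separate for the first 5 genes, and the DMSO and dTAG47 points separate for DKK1 and CELSR2.

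In parental cells 1 member was called with dTAG47 in the main fit, which has no factor for replicates. DKK1 was also called, as higher, with a replicate block or a factor for pairs of replicates, and FZD3, as lower, with the block. Of the 74 members 59 were tested, and 0 were called higher and 1 lower by edgeR's quasi-likelihood test, against 0.117% higher and 0.0415% lower of all 14470 genes tested. At an unadjusted p below 0.05 there were 6 members (10.2%), against 7.28% of all genes tested. The median log2 fold change was -0.0024 over the members and -0.0018 over all genes tested. The summed level of 4 Schwann markers was 7.46 to 8.17 CPM in DMSO and 9.56 to 12.1 CPM in dTAG47 libraries, and its part in the results was not tested. The sums of the neuroblastoma, mesenchymal, immune and endothelial markers overlapped between the groups.

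CELSR2 (ENSG00000143126.7, chromosome 1 of hg19 from 109792161 to 109818373, plus strand), an atypical cadherin of the polarity core, was the member called. It was at 93.1, 86.0, 101 and 98.3 CPM in the DMSO libraries and 58.6, 61.3, 69.6 and 68.2 CPM in the dTAG47 libraries. Every dTAG47 library was below every DMSO library, and the means were 94.6 ± 6.64 and 64.4 ± 5.29 CPM (SD, n = 4 each). The log2 fold change was -0.55 (SE 0.06, adjusted p = 0.000759, edgeR quasi-likelihood). Among the DMSO libraries the chi-square per degree of freedom over genes was 2.67 between replicates 1 and 2, 3.22 between replicates 3 and 4, and 8.97 to 11.6 across these pairs. The dTAG47 libraries followed this split only in part, with 8.43 between replicates 1 and 2, 2.70 between replicates 3 and 4, and 5.84 to 23.4 across. The log2 fold change of CELSR2 was -0.57 within replicates 1 and 2 and -0.54 within replicates 3 and 4. CELSR3 was at 21.9, 21.9, 24.2 and 24.6 CPM in DMSO and 20.9, 21.7, 22.7 and 22.3 CPM in dTAG47 cells and was not called (-0.08), and CELSR1 (-0.01) was not called. CELSR2 thus went from 80.3% to 81.4% of the summed CELSR level per kb with DMSO to 74.4% to 75.9% with dTAG47.

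The groups did not overlap for 4 of the 59 members (6.78%), against 3.34% of all genes tested: dTAG47 was above for DKK1 and WLS and below for CELSR2 and ZNRF3 (3.39% each way, against 1.87% and 1.47%). DKK1 was at 11.3, 12.05, 11.4 and 10.8 CPM in DMSO and 14.96, 13.4, 13.3 and 13.3 CPM in dTAG47 cells. Its log2 fold change was 0.27 (SE 0.06, adjusted p = 0.2, edgeR quasi-likelihood), which is not a call. It was 0.29 within replicates 1 and 2 (adjusted p = 0.617) and 0.26 within replicates 3 and 4 (adjusted p = 0.0263, edgeR), and it was called with a factor for these pairs of replicates (adjusted p = 0.00706, edgeR). With that factor 2.58% of all genes tested were called higher and 2.9% lower. Replicates 3 and 4 alone gave 2.93% and 3.24%, against 0.117% and 0.0415% in the main fit. WLS (71.9, 71.7, 73.1 and 74.5 CPM with DMSO, 75.4, 75.2, 76.7 and 76.1 CPM in dTAG47 cells) and ZNRF3 (91.2, 90.6, 91.1 and 89.8 CPM, then 84.7, 85.5, 89.6 and 87.1 CPM) had log2 fold changes of only 0.06 and -0.06. FZD1 (0.02), VANGL2 (-0.01), LGR4 (-0.03), CTNNB1 (-0.02) and PORCN (-0.05) were not called. RSPO1 and RSPO4 had 0 to 6 and 1 to 5 counts per parental library and were not tested.

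**Figure D4:**
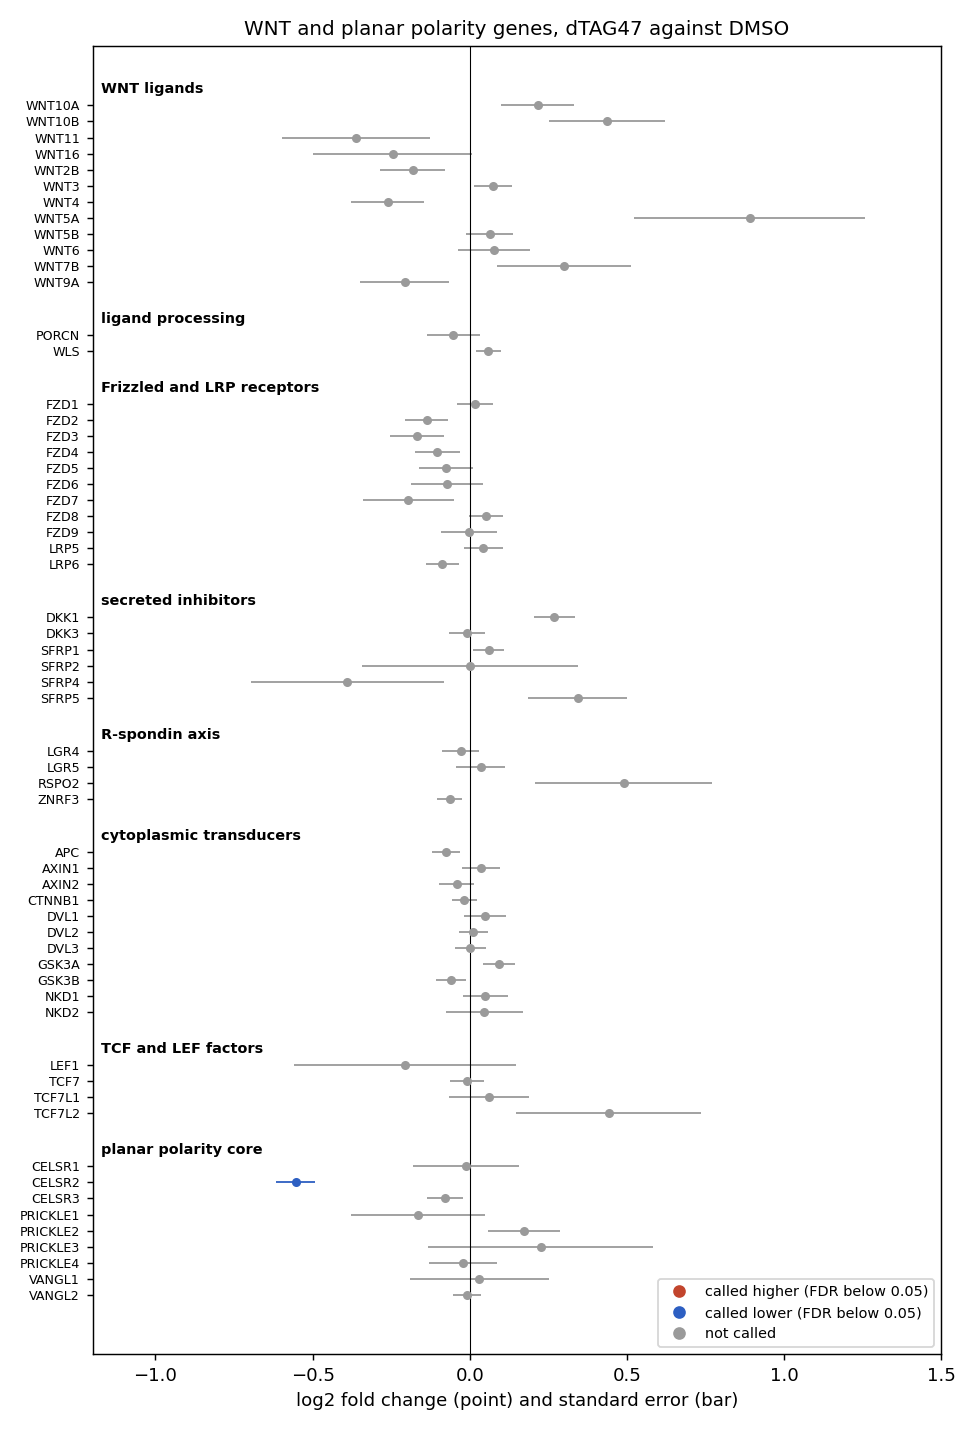
Log2 fold change (x axis, point) and standard error (bar) of the 59 members tested in dTAG47 against DMSO, grouped by role, from 4 libraries a group. CELSR2, at -0.55, is the only member called in this fit, which has no factor for replicates.

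Other genes of the pathway, outside the symbols above, were taken from a list by function: 112 of them are in the OmoMYC table. Of 101 tested, 29 were called higher (28.7%) and 20 lower (19.8%) with OmoMYC, against 27.3% and 25.7% of all genes tested, and the median log2 fold change was 0.04 against 0.01 over all genes. Among the 12 tested genes listed as WNT targets 3 were higher and 4 lower. The largest called changes were ranked over genes that averaged 1 CPM or more in a group, which leaves out CAMK2A (0.136 and 0.470 CPM), called higher by 1.76. At its level with EGFP, CAMK2A could not pass the filter on low counts without the OmoMYC libraries. It could thus hardly be called other than higher. CD44, an adhesion receptor that is also on the mesenchymal marker list, rose from 3.11 ± 0.364 to 10.3 ± 2.00 CPM (SD, n = 3 each), which gives a log2 fold change of 1.73 (SE 0.16, adjusted p = 1.76e-05, edgeR quasi-likelihood). CAMK2B, a calcium-dependent kinase of the non-canonical branch, rose by 1.65 (SE 0.13), and ANKRD6, the homologue of the fly polarity gene diego, by 1.31 (SE 0.16). The falls were led by the receptor gene LRP4 (-1.08, SE 0.17), the target gene SP5 (-0.99, SE 0.23) and the membrane inhibitor gene APCDD1 (-0.97, SE 0.15). In parental cells 0 of 100 tested genes of this list were called by edgeR's quasi-likelihood test, with 11 at an unadjusted p below 0.05 (against 7.28% of all genes tested).

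The gene feature correction bears on many of the smaller changes. The members tested had a median GC content of 53.5%, against 48.3% over all genes tested. The correction removes from each library its trend on GC content, exon length and gene span, and with it any change that follows these features. It moved the median log2 fold change of the members from 0.03 to -0.24 and that of all genes from 0.01 to -0.08. FZD1 (2.23), RSPO1, RSPO4 and DKK1 (1.27) were called higher with and without it. VANGL2 moved from 0.65 to 0.40 and DVL3 from 0.44 to 0.093, and both stayed called. The calls of WNT11, WNT4, GSK3A, NKD1 and CELSR3 were lost, and 16 members gained a call, 13 of them lower, among them LRP5 (-0.53), TCF7L1 (-0.67) and CELSR2 (-0.40), and 3 higher (FZD3, APC and CTNNB1).

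**Figure D5:**
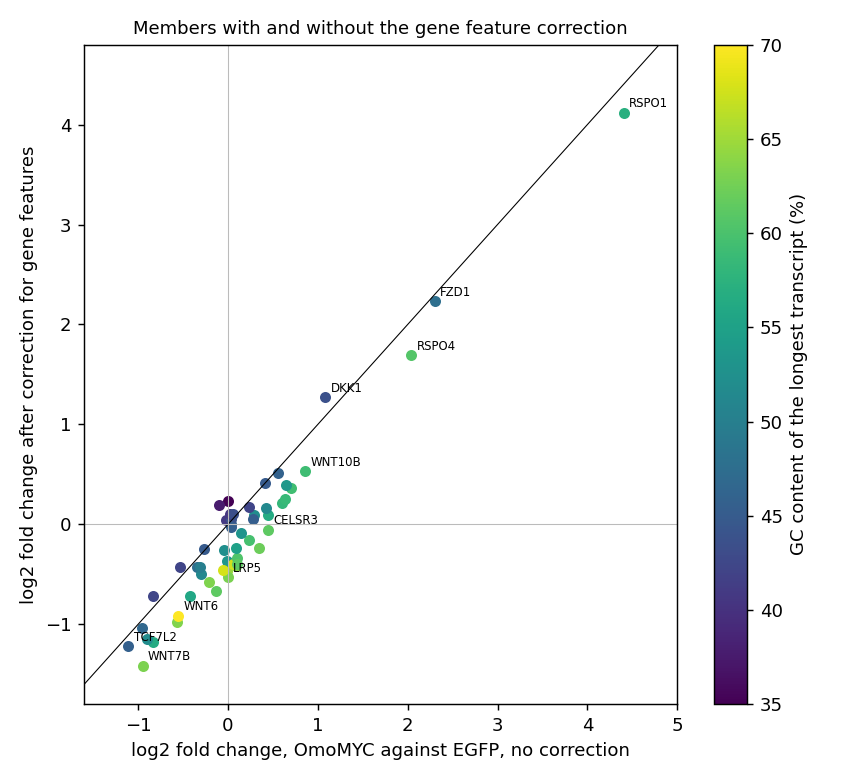
Log2 fold change of the 55 members tested in OmoMYC against EGFP without (x axis) and with (y axis) the correction for GC content, exon length and gene span, coloured by GC content (%). The line marks equal values; most members of high GC content lie below it, and the median moves from 0.03 to -0.24.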

How the data were processed

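RNA was sequenced after ribosomal RNA depletion. Per the labels and the methods, the authors removed adapters with Cutadapt, used STAR for alignment to hg19 and featureCounts for counting. The deposited files hold raw whole-number counts per gene. Tool versions, the annotation and strandedness are not given in the sources used here. The authors used DESeq2.

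Each experiment was analysed alone in R 4.3.3: edgeR 4.0.16 filterByExpr (minimum count 10), TMM factors and the robust quasi-likelihood test without a block, with Benjamini-Hochberg adjustment over all genes tested (FDR below 0.05). CPM uses TMM-scaled totals. Counts of at most 3 per library were taken as the floor, and bounds from it cover counting error only. Exon lengths, overlaps and coordinates come from GENCODE lifted to GRCh37 (hg19), in which all members were found. With 3 libraries against 3 the smallest p of an exact two-sided permutation test on a single gene is 0.1.

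Named with values in every library were, of called members with a mean of at least 1 CPM in either group, the 3 largest rises and falls in each role, and every member called with dTAG47. Every other called member and a fixed set of pathway genes are named with the fold change, and so are the 3 largest called rises and falls of other pathway genes with that mean level. RSPO4, WNT1, CAMK2A, PTPRC, TWIST1, YAP1, COL1A1, FN1, PRRX1, SNAI2, COL3A1 and the parental genes whose groups did not overlap were given after their values were seen. The members and lists were chosen with earlier results of these data known. Alternatives were DESeq2 1.42.0, limma-voom (limma 3.58.1), RLE factors, unscaled library sizes, a minimum of 10 counts in every library, no filter, a replicate block, the gene feature correction (splines of 5 degrees of freedom), glmTreat at 1.5-fold, leaving out each library, and the pairs of parental replicates. The fits were tested on simulated data.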

Additional observations from a re-analysis of the deposited data

Results flagged for a closer look

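Dixon's test was applied to the groups of 4 parental libraries for 11 members, which makes 22 groups, of which 2 held a library apart from the others. Chance sets a library apart in about 1 in 20 groups. VANGL2 in dTAG47 replicate 2 was at 93.4 CPM, with the other dTAG47 libraries at 101.5 to 102.9 CPM. DKK1 in dTAG47 replicate 1 was at 14.96 CPM, with the other dTAG47 libraries at 13.3 to 13.4 CPM. Without that library the DKK1 log2 fold change was 0.23 in place of 0.27.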

How the results depend on the processing

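FZD1, DKK1, RSPO1 and RSPO4 were called higher with OmoMYC under every alternative that tested them, glmTreat included. The last 2 passed the filter on low counts only through the OmoMYC libraries, so for them this adds no support. They were not tested with at least 10 counts in every library. With glmTreat at 1.5-fold, which asks for a change beyond that size, members called were 4 higher and 0 lower of the 55 tested. Other pathway genes were 8 higher and 3 lower of the 101 tested, against 6.85% and 1.73% of all 13803 genes. The gene feature correction gave 25 members lower and 46 other genes lower, and with the replicate block added 26 and 46. Of all genes tested, these 2 settings called 38.9% and 39.6% lower. The median of the members was -0.24 in both. That median was 0.018 with RLE factors, 0.061 without a filter, and 0.0037 to 0.093 with each library left out. Leaving out libraries gave 13 to 16 members higher and 9 to 12 lower, and 24 to 34 and 16 to 28 other genes. Of all genes tested, the same fits called 19.4% to 29% higher and 20.4% to 29.9% lower. WNT1 was called with DESeq2 and without a filter, RSPO2 with limma-voom, and RNF43, RSPO2 and PRICKLE2 without EGFP replicate 2, OmoMYC replicate 2 and OmoMYC replicate 3, respectively.

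Some members that were not called, and CELSR3, changed sign. With the gene feature correction, without and with the replicate block, values were -0.052 and -0.050 for CELSR3, -0.41 and -0.41 for AXIN1, -0.082 and -0.082 for AXIN2, 0.048 and 0.049 for LRP6, -0.40 and -0.39 for DVL1, -0.34 and -0.34 for DVL2, -0.24 and -0.25 for CELSR1, and -0.40 and -0.40 for CELSR2. LRP5 was 0.014 by library size only, 0.010 by limma-voom, 0.0087 with at least 10 counts and 0.0095 with the replicate block. With each library left out, values ran from -0.021 to 0.091 for CTNNB1, -0.045 to 0.057 for APC, -0.041 to 0.17 for AXIN1, -0.13 to 0.093 for LRP5, -0.10 to 0.035 for LRP6 and -0.11 to 0.20 for DVL1. The cause was not tested.

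For dTAG47, 1 member was called higher with the replicate block, the gene feature correction, both together, a factor for replicates 1 and 2 against 3 and 4, and replicates 3 and 4 alone, and this was DKK1. Of all genes tested, these settings called 2.11%, 0.535%, 0.803%, 2.58% and 2.93% higher, in that order. Members lower were 2 with the replicate block, 0 with glmTreat and 3 with replicates 3 and 4 alone, which added FZD3 and FZD2. Of all genes tested, these settings called 2.5%, 0% and 3.24% lower. Other pathway genes were 1 higher with the block, the correction or both, and 6 lower with the block. The members' median ran from -0.011 (without DMSO replicate 2) to 0.021 (without DMSO replicate 3) with a library left out. CELSR2 was called lower in 20 of 21 alternatives, the exception being glmTreat, with values from -0.60 to -0.51.

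EGFP and OmoMYC libraries with the same replicate number did not deviate together in every pair (correlations of 0.08, -0.07 and 0.29). Their numbers were not taken to pair them. For DMSO with dTAG47 every same-number correlation was positive (0.01, 0.11, 0.10 and 0.16). The other correlations were positive within replicates 1 and 2 and within replicates 3 and 4 (0.08 to 0.25). Across these pairs of replicates they were negative (-0.23 to -0.02). The parental libraries thus shared this split in both groups, and the main fit leaves it out. With the block all 28 member calls of OmoMYC were kept, and calls over all genes rose from 23 to 306 higher and 362 lower for dTAG47. The factor for replicates 1 and 2 against 3 and 4 gave 374 higher and 420 lower.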

Other observations

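Summed levels per kb of exon, each taken over a whole family, were set side by side in the EGFP and OmoMYC libraries as a description. The PRICKLE sum was 2.01 ± 0.215 and 2.89 ± 0.205 CPM per kb, the DVL sum 60.4 ± 8.17 and 72.4 ± 3.71 CPM per kb, and the GSK3 sum 20.8 ± 0.678 and 24.9 ± 0.184 CPM per kb (SD, n = 3 each). The sum of 18 WNT ligand genes was 18.4 ± 1.80 with EGFP and 16.4 ± 1.06 CPM per kb in OmoMYC cells, and its ranges (16.7 to 20.3 and 15.4 to 17.5 CPM per kb) overlapped. The LRP5 and LRP6 sum was 27.1 ± 2.14 and 26.9 ± 0.778 CPM per kb.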
